A study of Mus musculus with 4 samples.

Results

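The mouse collagen genes were followed in 4 RNA sequencing libraries of mouse lung. They were taken as every gene whose symbol has the form Col, a number, a and a number, counted once per Ensembl identifier, which gave 44 of the 46603 genes in the unfiltered table of the study. They were grouped by the assembly that their chains form or, for the cartilage type, by tissue. By this grouping 8 are fibrillar, 8 belong to basement membranes, 7 are of cartilage type and 21 are others. The cartilage type includes Col2a1, Col11a1 and Col11a2, whose chains also form fibrils. The mice were littermates of 6 to 8 weeks on the C57BL/6 background. The WT group carried the normal Ifnar1 gene (Ifnar1+/+, 2 libraries). The SA group carried the Ifnar1 S526A allele (2 libraries), in which a serine of this type I interferon receptor chain is changed to alanine. Every mouse had been given 100 µl of conditioned medium of B16F10, a mouse melanoma cell line, by vein 3 times a week over 3 weeks, so the injections were common to both groups. Lungs without the medium were not analysed here. The labels do not say how many copies of the allele the SA mice had. Whole lung tissue was taken.

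Collagens are secreted proteins in which 3 chains wind into a triple helix. Fibrillar collagens (types I, III and V in the lung) form the cable-like fibres of the interstitium, airways and vessel walls, and are made mostly by fibroblasts. Type IV collagen forms the sheet-like network of basement membranes, and the thin membrane shared by alveolar epithelium and capillary endothelium is the place where gas is exchanged. Types II, IX, X and XI are best known from cartilage, which in the airways lies in the wall of the trachea and large bronchi. Type VI forms beaded microfilaments beside basement membranes, and the remaining types sit on fibrils, anchor epithelia or span the plasma membrane.

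The libraries held 27381916 to 38378936 reads assigned to genes. Levels are log2 CPM, that is, reads scaled to the total of their library. Differences are SA minus WT in these units, with the SE (standard error) from a limma fit over all 12850 genes of the filtered table. A gene was called at a Benjamini-Hochberg adjusted p under 0.05. Of the 44 collagen genes, 31 are in the filtered table. The other 13 were read from the same fit on the 31073 genes of the unfiltered table that had a read in some library. All 4 libraries had the profile of lung, with alveolar type 2 markers summing to 24600 to 32300 CPM and alveolar type 1 markers to 5910 to 7660 CPM. Markers of muscle, squamous epithelium and fat differed between libraries and are given beside the collagens they moved with. Per library, values are given in the order WT 1, WT 2, SA 1 and SA 2. The design text speaks of biological replicates and no label says which animal a library came from, so a p-value reflects how far apart these 4 libraries lie.

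The type IV pair Col4a1 and Col4a2 had the highest levels per length among the collagens. Levels of different genes are compared here as log2 CPM per kilobase of exon, averaged over the 4 libraries. Col4a1 was at 6.90, Col4a2 at 6.35, the type VI chain Col6a1 at 5.81 and the type III chain Col3a1 at 5.45 on this scale. Col4a3, Col4a5, Col1a2, Col4a4, Col6a2 and the transmembrane collagen Col23a1 followed, between 4.72 and 3.91. The 10 highest therefore held 5 of the 6 type IV chains, and Col4a6 stood apart from its neighbour gene Col4a5 by 2.19 to 2.59 log2 units in every library. With the longest transcript as the length, 9 of these 10 were again among the highest. The order among them depended on the length used. With the longest transcript, Col3a1 was at place 3 and Col6a1 at place 4. Col1a2 moved from place 7 to place 5, with a mean of 5.64 in place of 4.43, and Col4a5 from place 6 to place 8. Some neighbours were also close on the exon scale. In WT, Col1a2 was at 4.59 ± 0.01 (SD, n = 2) and Col4a5 at 4.66 ± 0.11, a gap within the spread. Summed over all 44 genes, collagens took 4730 CPM and 4552 in WT and 3416 and 3487 in SA. Both SA libraries were below both WT libraries in this sum, 0.744-fold of WT on the mean. Of this sum, the type IV, XV and XVIII genes took 2676 and 2499 CPM in WT and 1825 and 1745 in SA. Cartilage type genes gave 0.0767% to 0.641% of the sum over all libraries.

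**Figure D1:**
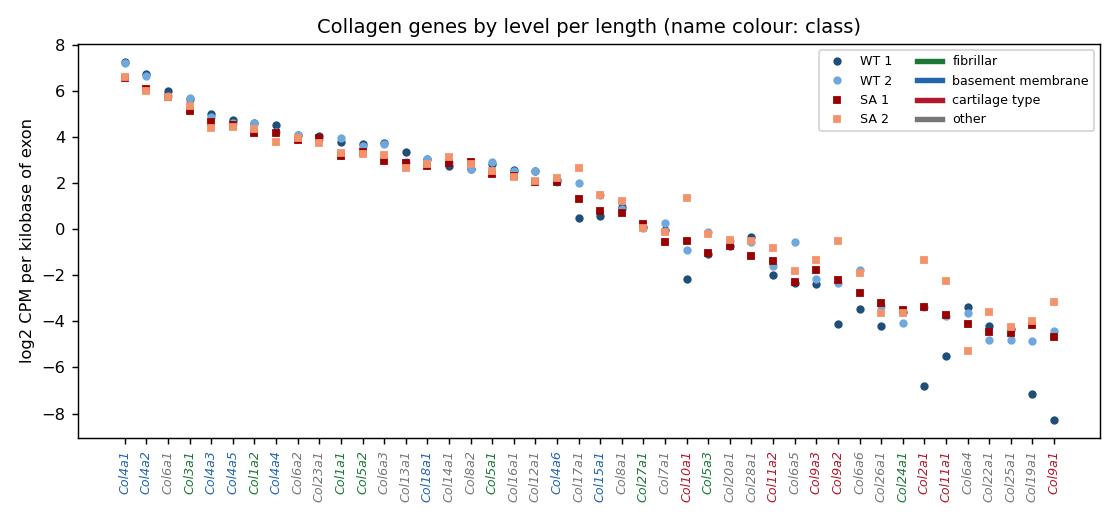
Level of each of the 44 collagen genes in each library as log2 CPM per kilobase of exon (y axis), ordered by the mean of the 4 libraries from left to right; the colour of each name gives the class. Col4a1 (mean 6.90) and Col4a2 (6.35) head the order, and the libraries lie farthest apart among the low genes at the right, many of them of cartilage type.

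In the SA lungs the abundant collagens of fibres and basement membranes had mostly lower levels than in WT, while the scarce cartilage collagens had higher means with a wide spread within each genotype. Of the 31 collagen genes in the filtered table, 22 had a lower mean in SA, against 39.6% of all genes, and 9 had a higher one. Both SA libraries lay below both WT libraries for 19 of the 31 (background 22.9% of all genes), above them for 3 (background 37.8%), and the groups overlapped for 9. The lower ones included 5 with a difference of 0.5 or more (background 3.18%), namely Col1a1, Col4a1, Col4a2, Col6a3 and Col6a4. The median difference of the 31 was -0.27, while that of all genes was 0.06. Over all genes, 0 of the 31 passed the adjusted threshold, where 0.311% of genes passed, 0.148% as lower and 0.163% as higher (19 and 21 genes, limma). At an unadjusted p under 0.05, 13 were lower (background 10.9%) and 1, Col8a2, was higher (background 16.4%). The lowest adjusted p-values were 0.0502 for Col12a1 and Col4a2 and 0.0543 for Col4a1. Of the 31 differences, 20 were larger than both differences between libraries of the same genotype. The share of all genes for which this holds was not worked out, so this count has no background. In whole tissue, fewer cells of a type and less RNA per cell cannot be told apart. The balance of called genes depended on the scaling, since median centring gave 169 higher and 307 lower and voom with median-of-ratios scaling gave 165 and 245. Under these settings 6 and 3 collagen genes passed the threshold.

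**Figure D2:**
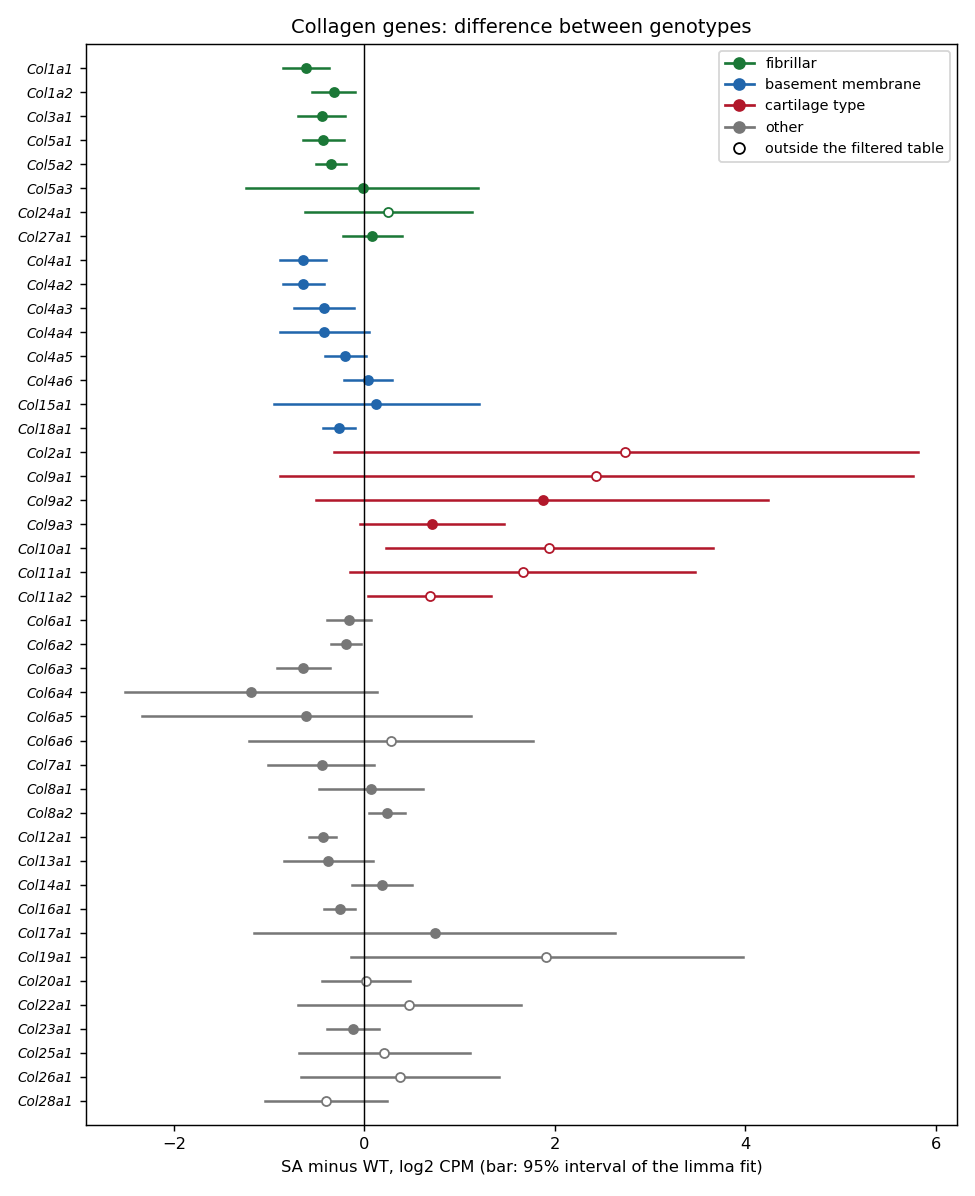
Difference between genotypes (SA minus WT, log2 CPM, x axis) for each collagen gene, coloured by class, with the 95% interval of the limma fit as a bar; open points are the 13 genes outside the filtered table. Fibrillar and type IV genes sit mostly left of 0 with short bars, while cartilage type genes sit right of 0 with long bars.

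Basement membrane genes were lower in SA for 6 of 8, with a median difference of -0.34, and the 6 had no overlap between the groups (background 22.9% of all genes). Col4a1 and Col4a2 encode the chains of the type IV network found in nearly all basement membranes. Col4a1 (ENSMUSG00000031502, chr8:11198423-11312826, minus strand) had log2 CPM of 10.15 and 10.09 in WT and 9.45 and 9.50 in SA. Col4a2 (ENSMUSG00000031503, chr8:11312805-11449287, plus strand) had 9.43, 9.35, 8.79 and 8.72 in the same order. In both genes the SA libraries lay well below the WT libraries, and the libraries of a genotype were within 0.09 of each other. The difference was -0.65 ± 0.09 (SE) for Col4a1, with a 95% interval from -0.89 to -0.40, and -0.64 ± 0.08 for Col4a2, from -0.85 to -0.42. These equal 0.639-fold and 0.644-fold of WT. In the filtered table neither passed (limma adjusted p = 0.0543 and 0.0502). In the unfiltered table both did (limma adjusted p = 0.0401 each, where 0.431% of genes passed as lower), and there they were the only collagen genes to pass, with 0 passing as higher (background 0.760%).

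The genes Col4a1 and Col4a2 lie head to head, with annotated starts 21 bases apart on opposite strands and 22 bases of exon in common. Col4a1 stayed above Col4a2 by 0.54, 0.57, 0.49 and 0.60 log2 CPM per kilobase in WT 1, WT 2, SA 1 and SA 2, so their ratio was alike in both genotypes while both levels were lower in SA. Their start regions are shown because this pair was the most abundant of the collagens and had nearly the same difference. Each window covers 250 bases before and 50 after the start, from RefSeq on GRCm38.p6, 5′ to 3′ on the strand of the gene. Capitals mark the 78 bases that both windows hold, read on opposite strands. The Col4a1 window is chr8:11312777-11313076 (minus) and the Col4a2 window is chr8:11312555-11312854 (plus).
Col4a1: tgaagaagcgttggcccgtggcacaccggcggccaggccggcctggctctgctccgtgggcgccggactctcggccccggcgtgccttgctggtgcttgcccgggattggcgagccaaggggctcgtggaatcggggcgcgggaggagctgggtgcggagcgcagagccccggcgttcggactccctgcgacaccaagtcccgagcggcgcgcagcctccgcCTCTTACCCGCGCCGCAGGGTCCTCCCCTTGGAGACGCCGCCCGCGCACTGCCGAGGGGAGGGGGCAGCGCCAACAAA
Col4a2: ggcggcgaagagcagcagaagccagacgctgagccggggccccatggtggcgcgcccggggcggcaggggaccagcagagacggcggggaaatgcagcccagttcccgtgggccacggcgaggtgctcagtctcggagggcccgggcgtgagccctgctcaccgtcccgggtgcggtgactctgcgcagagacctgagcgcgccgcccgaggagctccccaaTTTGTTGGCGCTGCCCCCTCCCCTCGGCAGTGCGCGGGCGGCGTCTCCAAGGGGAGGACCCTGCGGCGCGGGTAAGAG
Each window held 1 match to CCAAT on either strand, a motif in 37.4% of all 32544 windows and in those of 13 of the 35 collagen genes that had one. The motif GGGCGG was found at 1 place for Col4a1 and 3 for Col4a2, and in 35.9% of all windows. TATAAA, present in 13.6%, was found in neither. The G and C content was 74.0% and 73.7%. No motif contains another, and a match is a description of the sequence.

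Col4a3, Col4a4 and Col4a5 encode the chains of the second type IV network, which is found in the alveolar and glomerular basement membranes. Col4a3 (ENSMUSG00000079465, chr1:82586921-82722059, plus strand) was at 8.32 and 8.18 in WT and 7.96 and 7.69 in SA, a difference of -0.42 ± 0.12 (SE; limma adjusted p = 0.121). Its head-to-head neighbour Col4a4 was at 7.94, 7.64, 7.56 and 7.18, a difference of -0.42 ± 0.17. Col4a5 was at 7.49, 7.34, 7.27 and 7.16, a difference of -0.20 ± 0.08. All 3 had the same order of libraries, SA 2 lowest and WT 1 highest, and no overlap between genotypes, but the lower WT library and the higher SA library were close for Col4a4 and Col4a5. Without WT 1 the difference was -0.27 for Col4a4 and -0.12 for Col4a5, and without SA 2 it was -0.23 for Col4a4. Alveolar type 1 markers, whose cells make part of this membrane, were lower in SA for 8 of 8 genes (background 39.6%) with a median of -0.15. Only 1 of the 8 had no overlap (background 22.9%), and 0 had an unadjusted p under 0.05 (limma; background 10.9%). The summed CPM of these markers was 7660 and 6850 in WT and 7400 and 5910 in SA. Their part in the result was not tested. Col4a3 shares 563 exon bases with C430014B12Rik on the opposite strand, and no source used here says whether the counting used strand.

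The starts of Col4a3 and Col4a4 leave 71 bases between them, marked by capitals in the Col4a4 window of RefSeq (GRCm38.p6, chr1:82586800-82587099, minus strand), which is shown as the shared start region of the second head-to-head pair.
Col4a4: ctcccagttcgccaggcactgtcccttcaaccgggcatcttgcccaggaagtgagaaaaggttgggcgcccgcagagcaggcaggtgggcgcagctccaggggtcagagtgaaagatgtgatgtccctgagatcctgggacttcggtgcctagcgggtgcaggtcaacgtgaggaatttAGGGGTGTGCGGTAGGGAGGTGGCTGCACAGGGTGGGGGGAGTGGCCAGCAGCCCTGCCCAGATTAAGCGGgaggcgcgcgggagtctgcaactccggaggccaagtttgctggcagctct
In this window none of the 3 motifs above had a match on either strand, and the G and C content was 63.3%. Col4a3 stood above Col4a4 by 0.47, 0.63, 0.49 and 0.61 log2 CPM per kilobase in WT 1, WT 2, SA 1 and SA 2. This ratio varied more between libraries of a genotype than between genotypes.

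The other basement membrane genes did not follow the type IV pairs alike. Col4a6, whose chain joins Col4a5 in smooth muscle and bronchial membranes, was at 5.15 and 5.03 in WT and 5.04 and 5.21 in SA. The groups overlapped, the difference was 0.04 ± 0.09 (SE), and it turned negative with median centring (-0.0491), quantile normalization (-0.0335), voom with median-of-ratios scaling, and without WT 2 or SA 2. Smooth muscle markers, by contrast, had a higher mean in SA for 7 of 8 genes (median 0.44), with sums of 854, 975, 1190 and 1420 CPM in WT 1, WT 2, SA 1 and SA 2. Their part in the level of Col4a6 was not tested. Col18a1, the source of the fragment endostatin, was at 5.86, 5.87, 5.54 and 5.65, a difference of -0.27 ± 0.06 (limma adjusted p = 0.0975). Col15a1, its relative in the membranes of muscle and small vessels, was at 3.23, 4.12, 3.46 and 4.15, so the libraries of a genotype were farther apart than the genotypes. Its difference of 0.12 ± 0.40 turned to -0.32 without WT 1, to -0.22 without SA 2 and to -0.0533 with quantile normalization.

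Laminins and other partners of type IV collagen in the basement membrane were lower in SA for 16 of 16 genes. The median difference was -0.35, 12 had an unadjusted p under 0.05 (background 10.9% lower) and 0 passed over all genes (limma). Lama5, the laminin chain of most adult epithelial and vessel membranes, was at 8.00 and 7.98 in WT and 7.43 and 7.46 in SA, a difference of -0.54 ± 0.05 (SE; limma adjusted p = 0.0502). Lama3, the laminin chain of epithelial attachment, differed by -0.51 ± 0.07, and Lamc1, the most widespread gamma chain, by -0.41 ± 0.07. Lung endothelial markers, another source of these membranes, were lower for 11 of 12 genes with a median of -0.23. Their summed CPM was 4830 and 4220 in WT and 3800 and 3250 in SA, and their part in the type IV and laminin values was not tested.

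**Figure D3:**
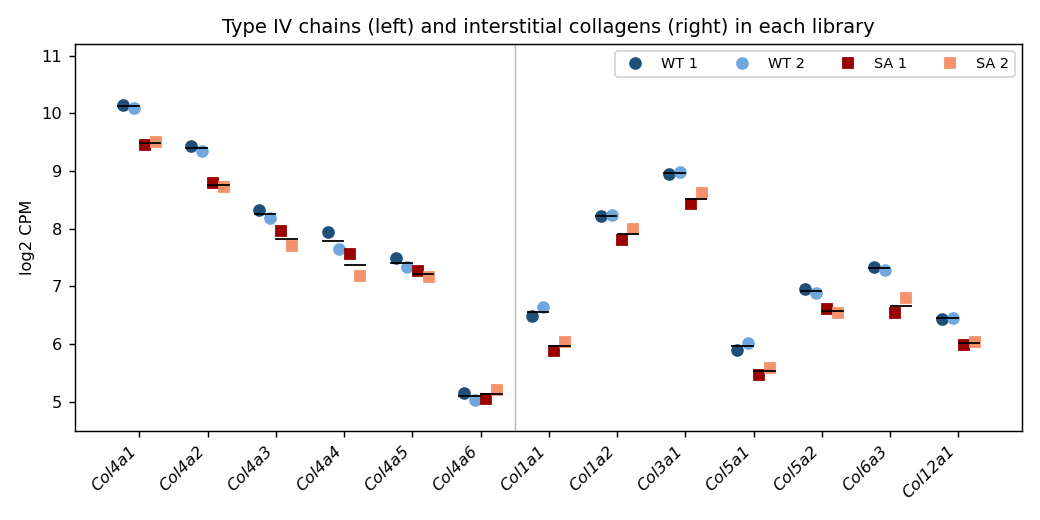
Level in each library (log2 CPM, y axis) of the 6 type IV chains (left) and of 7 collagens of the interstitium (right); circles are WT, squares are SA and bars are the means of a genotype. Both SA squares lie below both WT circles for every gene drawn except Col4a6. Collagens whose groups overlapped, such as Col14a1 and Col5a3, or that were higher in SA, such as Col8a2, are not drawn on the right.

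Fibrillar collagens, taken without the fibril-forming genes of cartilage type, were lower in SA for 6 of the 7 in the filtered table (background 39.6%). Of these, 5 had no overlap (background 22.9%), and the median difference of the 7 was -0.35. Type I collagen, the main protein of strong fibres, has chains from Col1a1 and Col1a2. Col1a1 (ENSMUSG00000001506, chr11:94936224-94953042) was at 6.49 and 6.64 in WT and 5.88 and 6.03 in SA, a difference of -0.61 ± 0.09 (SE; limma adjusted p = 0.0576). Col1a2 (ENSMUSG00000029661, chr6:4504814-4541544) was at 8.21, 8.23, 7.81 and 7.99, a difference of -0.32 ± 0.08 (limma adjusted p = 0.112). Both genes were lower in both SA libraries. Per kilobase, Col1a1 minus Col1a2 was -0.81 and -0.67 in WT and -1.02 and -1.04 in SA on the log2 scale, and this gap was wider in both SA libraries than in either WT library; the difference of the gap was not tested. The size of the gap depends on the length used, with a mean of -0.88 over union exons and -1.95 over the longest transcripts.

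Type III collagen, the partner of type I in extensible tissue, is encoded by Col3a1 (ENSMUSG00000026043, chr1:45311538-45349706). Its log2 CPM was 8.95 and 8.98 in WT and 8.42 and 8.62 in SA. The difference was -0.45 ± 0.09 (SE), 0.731-fold of WT (limma adjusted p = 0.0827). Type V collagen starts and limits the width of these fibrils. Its gene Col5a2 (ENSMUSG00000026042, chr1:45374321-45503282), a neighbour of Col3a1, was at 6.95, 6.89, 6.61 and 6.53, a difference of -0.35 ± 0.06 (limma adjusted p = 0.0651). Col5a1 was at 5.89, 6.02, 5.46 and 5.59, a difference of -0.43 ± 0.08. In all of these genes the lower WT library was above the higher SA library. The remaining type V chain, Col5a3, was at 1.69, 2.64, 1.74 and 2.54, so its libraries split by number within each genotype. Its difference of -0.02 ± 0.45 was 0.46 without WT 2, 0.38 without SA 1 and 0.0338 with voom on library totals. Col27a1, which is known from growth cartilage, was at 3.78, 3.74, 3.94 and 3.74, with overlap and a difference of 0.08 ± 0.11 that was negative with median centring (-0.00714), with quantile normalization (-0.0722) and without SA 1 (-0.0214). Col24a1 had 14 to 23 reads per library and is outside the filtered table.

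Genes that process and use fibrillar collagen were followed from lists, and 0 of them passed over all genes (limma). Of 17 measured genes for modification and folding of procollagen, 14 were lower in SA and 3 higher, with a median of -0.14. At an unadjusted p under 0.05, 3 of the 17 were lower (background 10.9%) and 1 was higher (background 16.4%), which is near the share over all genes or below it. P4ha2, a prolyl hydroxylase subunit, differed by -0.36 ± 0.06 (SE), and Sparc, a collagen-binding chaperone-like glycoprotein, by -0.43 ± 0.10. Plod3, a lysyl hydroxylase, differed by -0.17, and Sec23a, of the coat that carries procollagen out of the endoplasmic reticulum, by 0.18. The median of this list was thus nearer to 0 than that of the fibrillar genes. Of 5 measured genes for cleavage of the propeptides, 4 were lower (median -0.32), 3 of them at an unadjusted p under 0.05 (background 10.9%), among them Adamts2, the N-propeptide protease, at -0.39 ± 0.06, and Bmp1, the C-propeptide protease, at -0.52 ± 0.10. Pcolce, an enhancer of Bmp1, differed by -0.22, and Adamts14, a relative of Adamts2 outside the filtered table, by -0.41.

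The small proteoglycans that coat fibrils were divided, with 3 of 7 lower, 4 higher and a median of 0.00. Prelp, which binds collagen and basement membrane, was at 6.90 and 6.81 in WT and 6.16 and 6.06 in SA, a difference of -0.75 ± 0.07 (SE; limma adjusted p = 0.0502), and Bgn (biglycan) differed by -0.48 ± 0.06. Lum (lumican) was at 2.78, 3.74, 3.98 and 4.99, and its difference of 1.23 ± 0.49 followed the order of libraries seen in the cartilage genes. Omd (osteomodulin), outside the filtered table, had 98, 103, 119 and 235 reads. Collagen receptors were lower for 5 of 7 genes and higher for 2, with a median of -0.40. At an unadjusted p under 0.05, 4 of the 7 were lower (background 10.9%) and 1 was higher (background 16.4%). The higher ones were the kinase receptor Ddr1, at 0.18, and the inhibitory receptor Lair1 of immune cells, at 0.39. Itga2, the integrin chain for fibrillar collagen, differed by -0.69 ± 0.08, Mrc2, the endocytic receptor for collagen fragments, by -0.54 ± 0.07, Itga1, the integrin chain with preference for type IV, by -0.53 ± 0.09, and Ddr2, the relative of Ddr1 found on fibroblasts, by -0.40 ± 0.08. Among 10 genes that respond to TGF-beta, a growth factor known to induce fibrillar collagen, 7 were lower and 3 higher (median -0.21), with 5 lower and 1 higher at an unadjusted p under 0.05 (background 10.9% and 16.4%). Cyr61, a secreted matrix-associated protein, differed by -0.81 ± 0.16, Skil by -0.40 ± 0.11 and the feedback inhibitor Smad7 by -0.28 ± 0.08. The 3 higher ones were Acta2, at 0.39 ± 0.11, Tgfbi, at 0.11, and Tagln, at 0.10. Acta2 and Tagln are also counted among the smooth muscle markers above.

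Markers of lung fibroblasts were lower in SA for 11 of 14 genes and higher for 3, with a median of -0.32. At an unadjusted p under 0.05, 6 were lower (background 10.9%) and 0 higher, and 0 passed over all genes (limma). Their summed CPM was 6060 and 5460 in WT and 4850 and 4240 in SA. Pdgfra, a receptor that defines many lung fibroblasts, differed by -0.47 ± 0.10 (SE), and Pdgfrb, of pericytes and fibroblasts, by -0.61 ± 0.10. The 3 higher ones were Pi16, of adventitial fibroblasts, at 0.61, the elastic fibre protein Mfap4 at 0.33 and the transcription factor Tcf21 at 0.05. The part of the fibroblast markers in the collagen values was not tested.

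Type VI genes were lower in SA for 5 of the 5 in the filtered table (background 39.6%), 4 with no overlap (background 22.9%), and the mean difference of Col6a3 was larger than those of its partner chains. Col6a1 (chr10:76708792-76726168) was at 8.11 and 7.92 in WT and 7.87 and 7.85 in SA, a difference of -0.16 ± 0.09 (SE) that was -0.0592 without WT 1. Col6a2 (chr10:76595762-76623630) was at 7.16, 7.16, 6.92 and 7.02, a difference of -0.19 ± 0.06. Col6a3 (ENSMUSG00000048126, chr1:90765923-90843971) was at 7.33, 7.28, 6.54 and 6.79, a difference of -0.64 ± 0.10 (limma adjusted p = 0.0605). The chains of Col6a1, Col6a2 and Col6a3 make up the usual type VI molecule. The 95% interval of Col6a3, from -0.92 to -0.36, overlapped that of Col6a1, from -0.39 to 0.07. It lay just below that of Col6a2, from -0.35 to -0.04. The differences between these genes were not tested. Col6a4, an alternative to the Col6a3 chain, had 25, 21, 13 and 8 reads, and its difference of -1.19 ± 0.49 was -0.61 without SA 2. Col6a5, another alternative chain, had 57, 199, 52 and 101 reads; its difference of -0.61 ± 0.64 was 0.26 without WT 2. Col6a6, outside the filtered table, had 25, 84, 36 and 94 reads and overlapped.

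Among the remaining types, Col12a1 had the lowest unadjusted p of the 31 collagen genes in the filtered table, and in the unfiltered table it came after Col4a1, Col4a2 and Col1a1. Col12a1, which lies on the surface of type I fibrils, was at 6.44 and 6.45 in WT and 5.99 and 6.03 in SA. The libraries of a genotype were within 0.04 of each other, and the difference was -0.44 ± 0.05 (SE), 0.738-fold of WT (limma adjusted p = 0.0502). Col16a1, also fibril-associated, was at 5.31, 5.30, 5.06 and 5.04, a difference of -0.26 ± 0.06 (limma adjusted p = 0.0943). Col14a1, the close relative of Col12a1, was at 5.54, 5.70, 5.67 and 5.93, with overlap and a difference of 0.18 ± 0.12 that was 0.0584 without SA 2 and 0.10 without WT 1. Col7a1, of the fibrils that anchor epithelium, differed by -0.45 ± 0.21 with 192 to 393 reads, and by -0.25 without SA 1 or -0.29 without WT 2. The transmembrane collagen Col13a1 differed by -0.38 ± 0.17, and by -0.17 without WT 1. Its relative Col23a1 differed by -0.12 ± 0.10, and by -0.00849 without SA 2 or -0.0677 without WT 1. Type VIII collagen forms a network in vessel walls. Its gene Col8a2 was at 4.79, 4.75, 5.05 and 4.97, higher in both SA libraries by 0.24 ± 0.07 (limma adjusted p = 0.129), while the other, Col8a1, was at 3.93, 3.82, 3.68 and 4.20 with overlap. The difference of 0.07 ± 0.20 for Col8a1 was negative with median centring (-0.0238), with quantile normalization (-0.0873) and without SA 2 (-0.20).

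Cartilage type genes had few reads, and all 7 were lowest in WT 1 and highest in SA 2. This order held for 11 of the 44 collagen genes, for 15.1% of the genes in the unfiltered table and for 20.4% in the filtered one. Col2a1, the fibrillar chain of cartilage, had 2 reads and 28 in WT and 24 and 141 in SA. Col10a1, made by hypertrophic chondrocytes, had 21, 53, 60 and 305 reads, and Col11a1, of the fibril core, had 8, 29, 26 and 102. In CPM, WT 2 and SA 1 were nearly alike for Col2a1 (0.885 and 0.876) and Col11a1 (0.916 and 0.95). For Col10a1 they were at 1.67 and 2.19. WT 1 and SA 2, the outer libraries of the order, were far from them in all of these genes. Col11a2, which pairs with Col11a1, had 53, 71, 72 and 148 reads. The type IX chains, which coat the fibril, had 0, 7, 5 and 21 reads for Col9a1, 5, 19, 18 and 83 for Col9a2 and 22, 27, 30 and 58 for Col9a3. The 0 reads of Col9a1 in WT 1 allow up to 3 reads, or 0.098 CPM, by counting error alone.

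Scaled to the library totals, the 7 genes summed to 3.63 CPM and 7.39 in WT and 8.58 and 22.4 in SA. The step from WT 1 to WT 2 and that from SA 1 to SA 2 were thus both larger than the step from WT 2 to SA 1. The SA libraries were above the WT libraries without overlap for 5 of the 7, and for 7 of all 44 collagen genes in the unfiltered table (background 32.0%). The difference was 1.87 ± 0.88 (SE) for Col9a2 and 0.71 ± 0.28 for Col9a3 in the filtered table (limma adjusted p = 0.254 and 0.20). In the unfiltered table it was 1.94 ± 0.69 for Col10a1, 1.66 ± 0.73 for Col11a1 and 0.69 ± 0.26 for Col11a2 (limma adjusted p = 0.243, 0.324 and 0.269). These values hung on single libraries: Col10a1 differed by 1.02 without SA 2 and by 2.87 without SA 1, Col9a2 by 0.98 without WT 1 and by 2.75 without WT 2, and Col11a1 by 0.79 without WT 1. Col9a3 shares 234 exon bases with Tcfl5 and Col10a1 shares 18 with Nt5dc1, both on the opposite strand.

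Non-collagen cartilage markers had the same order of libraries. The 10 markers found summed to 5.36 CPM and 12.0 in WT and 15.6 and 27.3 in SA. Chad (chondroadherin), with 125, 245, 296 and 490 reads, gave the largest part of this sum in every library. Acan, the cartilage proteoglycan aggrecan, had 0, 39, 44 and 180 reads, and Comp, a matrix protein of cartilage, had 7, 23, 20 and 138. The 7 bone markers did not have this order and summed to 9.28 and 9.76 CPM in WT and 6.5 and 8.34 in SA. Most of this sum came from Alpl, an alkaline phosphatase of many tissues, with 190, 201, 92 and 191 reads, and Runx2, a transcription factor of bone and cartilage, with 84 to 97 reads. Of the genes that define bone cells, Dmp1 had 0 reads in all 4 libraries, Sp7 0 to 1, Bglap 0 to 3, Bglap2 5, 5, 0 and 19, and Ibsp 1, 5, 1 and 10. Skeletal muscle markers, which lung tissue proper lacks, summed to 1360, 1770, 2990 and 4340 CPM, and cardiac muscle markers, known also from the wall of the pulmonary veins in mice, to 483, 864, 1490 and 2540 CPM. All 3 lists were lowest in WT 1, then WT 2, SA 1 and SA 2. The sums of the squamous epithelium and adipocyte markers, given below, were also lowest in WT 1 and highest in SA 2. The part of these tissues in the cartilage collagen values was not tested.

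**Figure D4:**
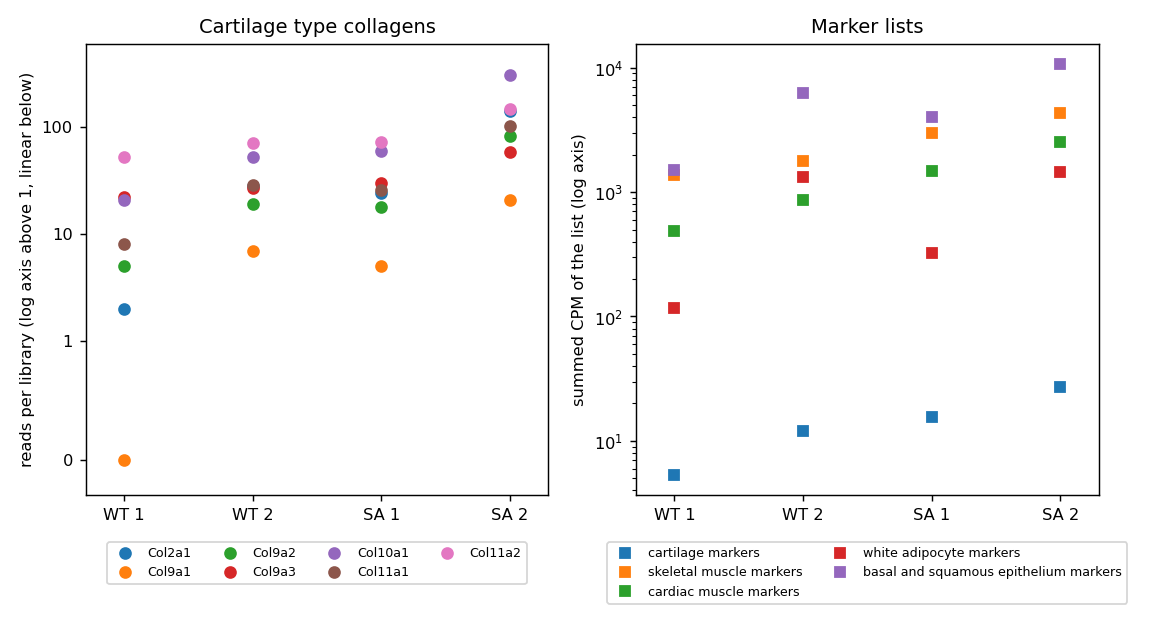
Reads of the 7 cartilage type collagen genes (left; log axis above 1) and summed CPM of 5 marker lists (right; log axis) in each library. Every cartilage type gene is lowest in WT 1 and highest in SA 2, Col10a1 with 21 and 305 reads, and so are all 5 lists. The cartilage and muscle lists have WT 2 below SA 1, while the adipocyte and squamous epithelium lists have WT 2 above SA 1.

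Within a genotype, the 2 libraries were close for the abundant collagens and far apart for a small group. For 9 of the 44 genes the second library exceeded the first by 0.5 log2 CPM or more in both genotypes. Of these, 4 are among the 31 of the filtered table, where 4.36% of all genes did so; among all genes with reads 7.31% did. The 9 were 5 cartilage type genes, Col5a3, Col15a1, Col6a6 and Col17a1. Col17a1 encodes a hemidesmosome collagen of basal epithelial cells and was at 3.07 and 4.57 in WT and 3.87 and 5.24 in SA. Its difference between genotypes, 0.74 ± 0.70 (SE), was smaller than either of its differences within a genotype, and it was -0.0151 without WT 1. Basal and squamous epithelium markers had the same order of libraries as Col17a1 in their sum, 1510, 6310, 4010 and 10600 CPM, and Krt5, a keratin of basal cells, was at 3.40, 5.57, 5.03 and 6.46 log2 CPM. White adipocyte markers also had it in their sum, at 117, 1320, 325 and 1460 CPM, and Adipoq (adiponectin) had 202, 3442, 696 and 4921 reads. The adipocyte markers Retn, Cidec, Cfd and Lep were instead highest in WT 2, Cfd with 1188, 19690, 3788 and 17175 reads. Col15a1 shared the order of Col17a1, WT 1, SA 1, WT 2 and SA 2 from low to high, and this order was found in 5 of the 44 genes. How many of all genes have this order was not worked out, so this count has no background. The part of these epithelial and fat markers in the collagen values was not tested.

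**Figure D5:**
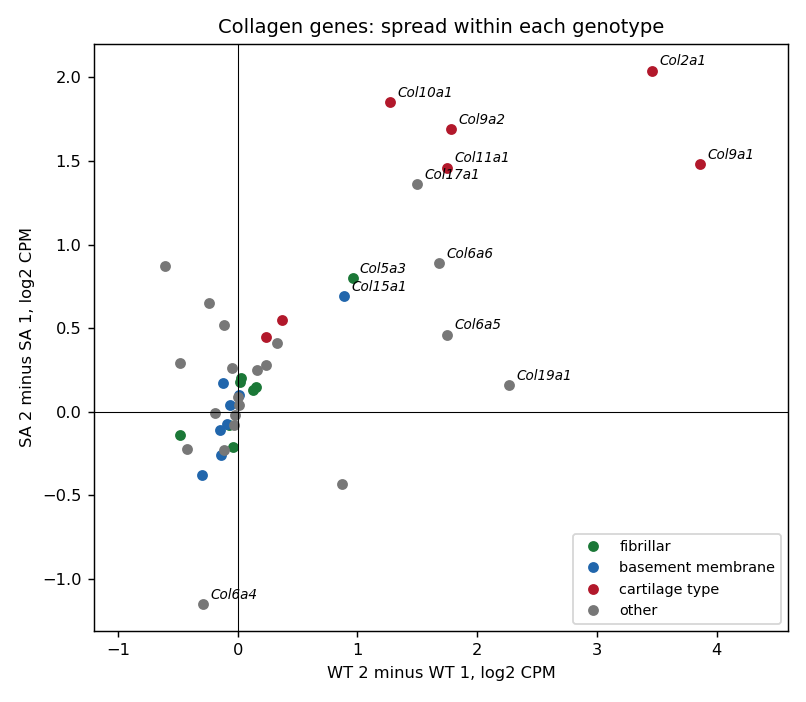
Difference between the 2 libraries of each genotype for all 44 collagen genes, WT on the x axis and SA on the y axis (second minus first library, log2 CPM), coloured by class. Fibrillar and basement membrane genes gather near 0 except Col5a3 and Col15a1, while 5 cartilage type genes and Col17a1 lie high on both axes.

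Of the 13 genes outside the filtered table, 5 are of cartilage type and were given above, as were Col24a1 and Col6a6. The remaining 6 were scarce, with 1 to 142 reads per library. Col19a1, a fibril-associated collagen, had 1, 7, 10 and 16 reads in WT 1, WT 2, SA 1 and SA 2. Its SA libraries were above its WT libraries, and the counts are too low for a firm statement. Col20a1 had 83 to 142 reads and a difference of 0.02 ± 0.19 (SE). Col22a1, of tissue junctions, had 10 to 29 reads, Col25a1, a transmembrane collagen of neurons, 14 to 26, and Col26a1 13 to 25. Col28a1, known from the sheaths of peripheral nerve, had 119, 104, 59 and 130 reads. The groups overlapped for all of these but Col19a1.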

How the data were processed

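Lung total RNA was depleted of ribosomal RNA and sequenced as stranded libraries, per the labels' protocols. The submitters' processing notes name Subread, featureCounts, limma and GRCm38, with no versions. Annotation release, strand setting and the rule of the deposited filter were not given in the sources used here. Both deposited tables hold log2 values: log2 CPM from reads plus 0.5, with no further scaling. Undoing this gave whole reads, within 0.001, for 100.0% of genes. A floor of 3 reads equals 0.078 to 0.11 CPM and covers counting error only. No pair of libraries was alike within sampling noise (chi-square of 31.3 to 111.8 per degree of freedom).

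Genotypes were compared with limma 3.58.1 under R 4.3.3 (lmFit, eBayes with trend, two-sided, Benjamini-Hochberg) on the deposited log2 values, with genotype as the only term and 2 residual degrees of freedom. With 2 against 2 libraries, no permutation test can pass the threshold of 0.05. Voom on the recovered reads served as a count-based alternative. The fit was tested on simulated data. Other alternatives were the replicate number as a block, filters, scalings, trends, a pseudocount and leaving out each library. Exon lengths and positions came from GENCODE M21 (GRCm38), start windows from RefSeq (GRCm38.p6). Python 3.11.15, pandas 2.3.3, numpy 2.4.6 and matplotlib 3.10.9 were used.

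The collagen genes and the gene lists were chosen with earlier results of these data known, and the squamous epithelium and adipocyte lists after seeing these values. Named by rule were the 3 most abundant genes of each class, genes of the filtered table with no overlap and a difference of 0.5 or more, genes past the threshold, cartilage type genes with 10 reads or more, and, from each pathway list, at most the 4 of lowest p; other named genes were chosen after their values were seen. Some genes of the pathway lists are not reported here by name. Exons of 3 collagen genes overlap another gene on the same strand and those of 10 on the opposite strand.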

Additional observations from a re-analysis of the deposited data

How the results depend on the processing

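Of the 31 collagen genes (28 with a mean of at least 1 log2 CPM), 21 to 26 were lower in SA under every setting, with a median difference between -0.25 and -0.36, but how many passed the threshold depended on the setting. Genes called higher and lower over all genes, and collagen genes past the threshold, were 236, 134 and 2 with the unfiltered table, 217, 198 and 3 with a mean of at least 1 log2 CPM, 169, 307 and 6 with median centring, 331, 280 and 5 with a robust trend, 157, 111 and 3 with voom on library totals, and 165, 245 and 3 under median-of-ratios scaling in voom. They were 0, 0 and 0 with quantile normalization, 1, 0 and 0 with no trend, and 8, 2 and 0 with log2(CPM + 1). Leaving out each library gave 0 to 6 higher, 0 to 0 lower and 0 collagen genes; the lone library is then assumed to vary like the other group. With the replicate number as a block there were 1973, 1206 and 18; deviations of same-numbered libraries correlated (r = 0.644 over 12041 genes), but with 2 pairs and no label that says what a number marks, the libraries were not treated as paired. The fibrillar median was -0.44 with median centring, -0.40 under median-of-ratios scaling in voom and -0.35 to -0.46 with libraries left out, and the cartilage type median (2 genes, 1.29) was 0.55 with log2(CPM + 1) and 0.71 with quantile normalization (Col9a3 0.11). Leaving out libraries gave -0.26 to -0.40 for basement membrane, 0.75 to 1.82 for cartilage type and -0.18 to -0.24 for other genes. Signs turned for Col27a1 (-0.00714 with median centring, -0.0722 with quantile normalization, -0.0214 to 0.19 with libraries left out), Col4a6 (-0.0491, -0.0335, -0.00135 under median-of-ratios scaling in voom, -0.0443 to 0.13; -0.0195 without WT 2), Col8a1 (-0.0238, -0.0873, -0.20 to 0.33), Col15a1 (-0.0533 with quantile normalization, -0.32 to 0.57; -0.22 without SA 2), Col5a3 (0.0338 with voom on library totals, -0.50 to 0.46; 0.38 without SA 1), Col17a1 (-0.0151 to 1.49) and Col6a5 (-1.49 to 0.26); the cause was not tested. Low read counts limit the cartilage type genes.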
